A study of Homo sapiens with 8 samples.

Results

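The SERPINA cluster is a run of 9 serpin genes on chromosome 14 of GRCh38, taken here as SERPINA10, SERPINA6, SERPINA1, SERPINA11, SERPINA9, SERPINA12, SERPINA4, SERPINA5 and SERPINA3 in GENCODE 44. All 9 genes were found, over 344 kb from 94280460 to 94624055, with the first 6 on the minus strand and the last 3 on the plus strand. Peaks of chromatin accessibility were taken where their summit, the position of highest signal, lay between the first and last of these genes or within 50 kb of either end. This interval ran from 94230460 to 94674055 and held 43 of the 60628 peaks of the library, or 0.0709%. Bulk ATAC-seq, in which the Tn5 transposase cuts and tags open chromatin, covered 8 libraries of HepG2 cells, which received 0.1, 0.5, 1 or 5% formaldehyde (FA) before cryopreservation or flash freezing. The values come from the peak list of 1 library, the cells fixed with 0.1% FA and cryopreserved, and the other libraries were not analysed here. HepG2 is a line derived from a human liver cancer, keeps many features of hepatocytes and is known to carry extra copies of chromosome 14, which were not measured here. More copies would raise pileups, so values of the rest of chromosome 14 are given beside those of all nuclear peaks. There was no replicate and no comparison between conditions, so no test was made, and the intervals given are exact 95% intervals that cover counting error only.

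Serpins are proteins that trap serine proteases by presenting a loop that the protease cuts, after which the serpin changes shape and holds the enzyme. A few family members have lost this activity and carry hormones instead. The genes of the cluster arose by duplication, and several of them are expressed mainly by hepatocytes, which secrete the products into plasma. SERPINA1 encodes alpha-1-antitrypsin, the main inhibitor of neutrophil elastase in plasma, and SERPINA3 encodes alpha-1-antichymotrypsin, an inhibitor of cathepsin G and an acute-phase protein. SERPINA10 (protein Z-dependent protease inhibitor) and SERPINA5 (protein C inhibitor) act in coagulation. SERPINA4 encodes kallistatin, an inhibitor of tissue kallikrein, and SERPINA6 encodes corticosteroid-binding globulin, which carries cortisol. SERPINA9 is known from germinal centre B cells and SERPINA12, or vaspin, from adipose tissue and skin. SERPINA11 is less well described.

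The identity of the cells was checked on marker genes. A peak at the transcription start site (TSS), defined as a peak overlapping the 1000 bp to either side of the start of the canonical transcript, was found at 9 of 10 hepatocyte genes, ALB being the exception. None of 5 blood cell genes and none of 5 genes of fibroblasts or endothelium had one. Over all 20033 protein-coding genes the share was 61.5%.

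Of the 9 SERPINA genes, 6 (66.7%, interval 29.9 to 92.5%) had a TSS peak. These were SERPINA10, SERPINA6, SERPINA1, SERPINA11, SERPINA5 and SERPINA3, and the 3 without one were SERPINA9, SERPINA12 and SERPINA4. This was near the 61.5% of all protein-coding genes. The starts of the SERPINA genes were poorer in GC than most, with a median of 52.7% (45.4 to 56.5%) within 500 bp of the TSS against 61.3% over protein-coding genes. All 9 fell in classes 2 to 4 of 10 GC classes of about equal size, in which 51.0% of 5953 genes had a TSS peak. In class 2 a TSS peak was found at 3 of 4 of the listed SERPINA genes, against 32.4% of all genes of the class. In class 3 it was found at 2 of 4, against 54.4%, and SERPINA1 alone lay in class 4, where 66.4% of genes had a TSS peak. SERPINA2, a protein-coding gene of the interval that is not 1 of the 9, also lay in class 2 and had no TSS peak.

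**Figure D1:**
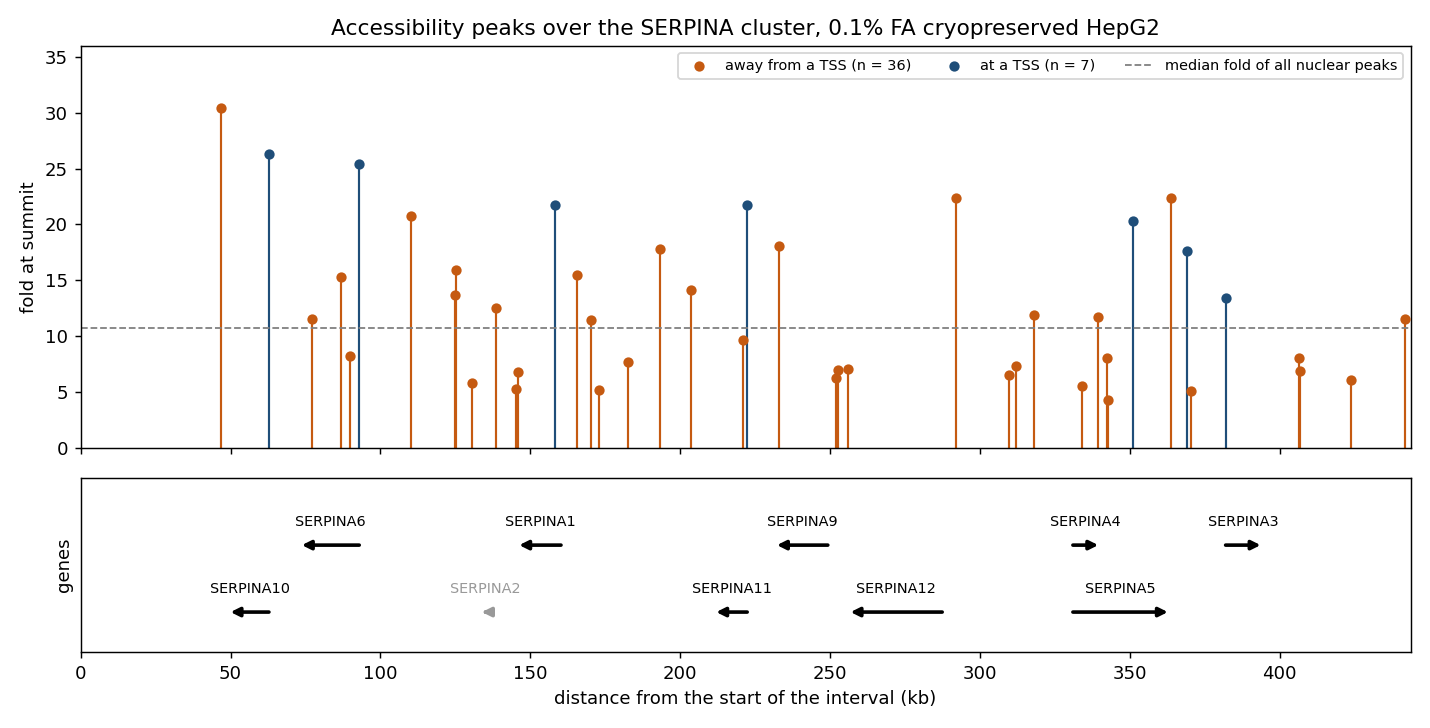
Fold at the summit of each of the 43 peaks (y axis) against distance from the start of the interval in kb (x axis), with the SERPINA genes drawn as arrows in the direction of transcription below; SERPINA2, in grey, is not 1 of the 9 genes. Points in blue are the 7 peaks at a TSS and points in orange the 36 away from one; the dashed line is the median fold of all nuclear peaks, 10.7. The 6 peaks at SERPINA starts stand between 13.4 and 26.3, and the highest point, 30.4, lies to the left of SERPINA10.

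The TSS peaks are shown first by part of their sequence. The stretches given here are, for each TSS peak, the longest run upstream of the canonical TSS that no transcript annotates as untranslated region, read 5′ to 3′ on the strand of the gene from GRCh38. They leave out the summit at SERPINA10, SERPINA6 and SERPINA3. Capitals mark matches to the motifs of liver and general promoter factors named later. The SERPINA10 stretch covers chr14:94293269-94293405, up to the base before the TSS, the SERPINA6 stretch chr14:94323390-94323481, from -145 to -54 bp of the canonical TSS, and the SERPINA1 stretch covers chr14:94388666-94388800, from -198 to -64 bp of it. The SERPINA11 stretch covers chr14:94452801-94453007, the SERPINA5 stretch chr14:94581294-94581393 and the SERPINA3 stretch chr14:94612244-94612296.
SERPINA10: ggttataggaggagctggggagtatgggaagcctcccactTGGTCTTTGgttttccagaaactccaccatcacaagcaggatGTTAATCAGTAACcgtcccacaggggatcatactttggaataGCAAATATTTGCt
SERPINA6: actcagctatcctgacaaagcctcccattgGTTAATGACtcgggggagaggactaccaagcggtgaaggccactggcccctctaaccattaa
SERPINA1: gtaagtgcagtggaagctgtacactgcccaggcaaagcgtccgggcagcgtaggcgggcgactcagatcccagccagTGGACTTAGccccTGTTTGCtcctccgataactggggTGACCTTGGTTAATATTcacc
SERPINA11: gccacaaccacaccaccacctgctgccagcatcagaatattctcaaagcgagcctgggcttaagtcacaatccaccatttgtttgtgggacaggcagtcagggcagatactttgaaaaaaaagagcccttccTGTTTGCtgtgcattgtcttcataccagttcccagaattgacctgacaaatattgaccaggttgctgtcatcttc
SERPINA5: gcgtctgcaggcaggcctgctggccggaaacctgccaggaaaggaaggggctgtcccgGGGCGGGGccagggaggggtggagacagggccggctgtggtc
SERPINA3: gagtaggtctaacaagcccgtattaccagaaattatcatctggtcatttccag

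In the SERPINA10 stretch the capitals are, from left to right, a match of HNF4A, a pair of overlapping HNF1 matches on opposite strands and a pair of overlapping FOXA matches next to the TSS. The SERPINA6 stretch holds an HNF1 match. The SERPINA1 stretch holds matches of HNF4A, FOXA, NR5A2 and HNF1, the last 2 sharing 1 base. The SERPINA11 stretch holds a FOXA match, the SERPINA5 stretch a GC box of the SP/KLF family, and in the SERPINA3 stretch none of the 12 motifs searched was matched. The SERPINA3 stretch is the shortest, with 53 bases of a peak of 202 bp. The motif shares given later were instead taken within 50 bp of each summit. In that window the SERPINA1 peak held no match. The HNF4A and HNF1 matches printed for SERPINA10 and the HNF1 match printed for SERPINA6 also lay outside it.

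The height of a peak is given as fold, the ratio of summit pileup to local background given by the peak caller with 1 added to both, and as pileup, the whole number of fragments or extended reads stacked at the summit, which was worked out from the deposited fold and p-value on the assumption that the caller adds this 1. SERPINA10 (ENSG00000140093), with a peak from 94293035 to 94293405, had the highest fold of the 6 at 26.3, from a pileup of 91 (interval 73.3 to 112). Its summit lay 12 bp inside the gene, and the fold was above that of 88.5% of protein-coding TSS peaks. SERPINA6 (ENSG00000170099) followed, with a peak from 94323138 to 94323481, a fold of 25.4 and a pileup of 76 (59.9 to 95.1), its summit 13 bp upstream of the TSS. Fold and pileup at both genes were well above the medians of TSS peaks, which were 14.9 and 39 over the rest of chromosome 14 and 14.5 and 33.0 over all nuclear peaks.

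SERPINA1 (ENSG00000197249) and SERPINA11 (ENSG00000186910) had the same fold, 21.7, from different pileups. At SERPINA1 the pileup was 85 (67.9 to 105) over a local background of 2.97, and at SERPINA11 it was 54 (40.6 to 70.5) over 1.54. The SERPINA1 summit lay 180 bp upstream of the canonical TSS, the farthest of the 6, and that of SERPINA11 58 bp upstream, in a peak from 94452721 to 94453007. SERPINA5 (ENSG00000188488), with a peak from 94581294 to 94581480, had a fold of 20.3 with a pileup of 39 (27.7 to 53.3), and its summit was 50 bp upstream. SERPINA3 (ENSG00000196136), with a peak from 94612244 to 94612445, was lowest in both, with a fold of 13.4 and a pileup of 22 (13.8 to 33.3) and the summit 40 bp upstream. Its fold was above that of only 26.7% of protein-coding TSS peaks, whereas the other 5 were above the median of these, 17.9.

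By pileup the order was SERPINA10, SERPINA1, SERPINA6, SERPINA11, SERPINA5 and SERPINA3. The counting intervals of each pair of neighbours in this order overlapped. Those of SERPINA10 and SERPINA1 lay wholly above those of SERPINA5 and SERPINA3, and that of SERPINA6 did so as well. Of the 6 summits, 5 lay upstream of the TSS, which was also so for 84.0% of protein-coding TSS peaks, whose median position was -71.0 bp.

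**Figure D2:**
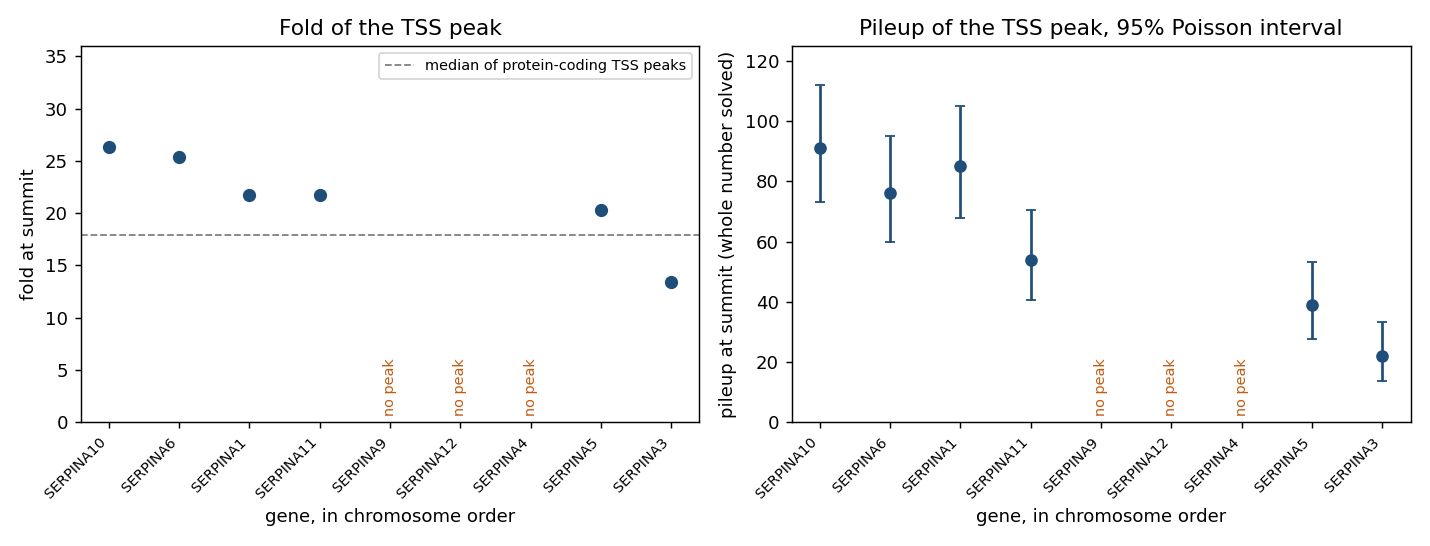
Fold at the summit (left) and pileup at the summit with exact 95% Poisson intervals (right) for the TSS peak of each SERPINA gene, in chromosome order. The dashed line is the median fold of protein-coding TSS peaks, 17.9; SERPINA9, SERPINA12 and SERPINA4 had no TSS peak, and SERPINA3 is the lowest point in both panels with a fold of 13.4 and a pileup of 22.

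SERPINA1 has starts far apart, and transcription is known to begin at a downstream promoter in hepatocytes and at upstream ones in monocytes and macrophages. GENCODE 44 lists 20 transcripts of the gene, which were each placed against the peaks. The TSS peak spanned 94388469 to 94388901 (433 bp), and 5 transcripts started inside it, between 94388589 and 94388847. A further 14 transcripts, with 8 distinct starts between 94390614 and 94390693, began 1713 to 1792 bp from the edge of this peak, and no other peak was nearer. The remaining transcript began inside the gene at 94383246, which was 5223 bp from the peak. Thus 5 of 20 starts (25.0%) had a peak within 1000 bp, and the upstream group of starts had none. All 5 of these starts lay inside the peak, so the count was the same at any shorter distance. The share over all annotated transcript starts was not measured, and the 25.0% depends on how many transcripts are annotated at each site. The lncRNA ENSG00000289541, which starts at 94390771 next to the upstream group, also had no TSS peak. A stretch without a listed peak held none that passed the caller's threshold in this library, where the smallest -log10 q listed was 3.01.

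**Figure D3:**
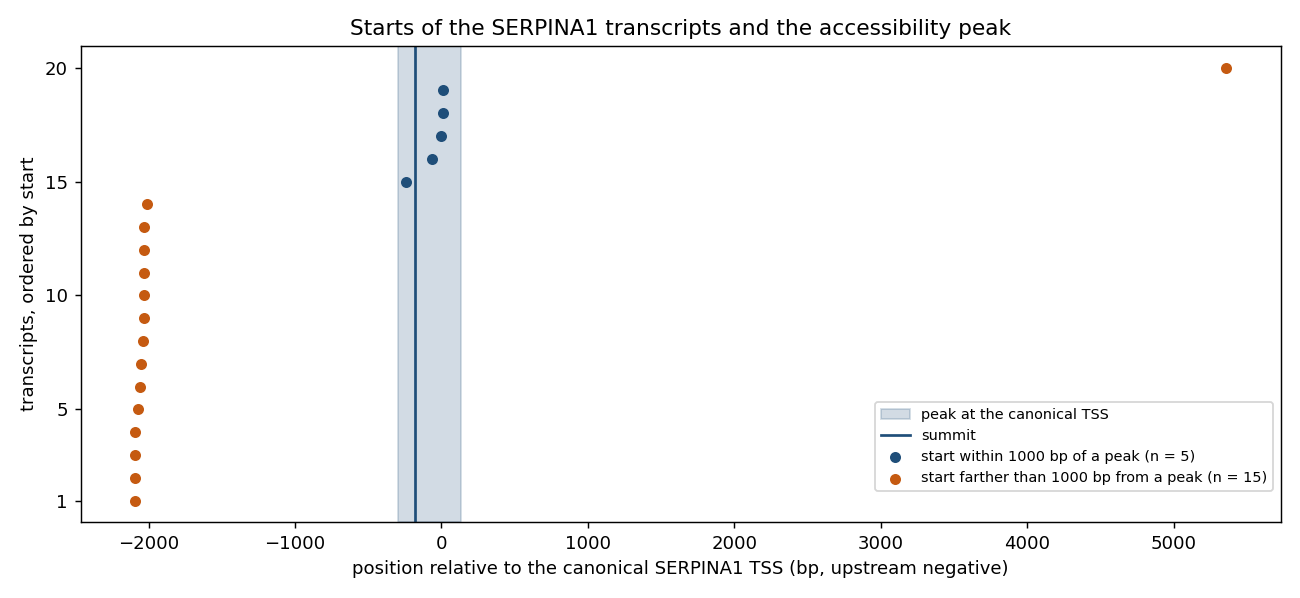
Start of each of the 20 SERPINA1 transcripts (points, ordered by start on the y axis) relative to the canonical TSS in bp (x axis, upstream negative), with the TSS peak shaded and its summit as a line. The 5 starts in blue fall inside the peak, and the 14 upstream starts in orange stand 2012 to 2091 bp before the canonical TSS, outside it.

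Within the body of SERPINA1 the TSS peak was the only one. The next 4 peaks, at 7.52, 12, 14.9 and 24.5 kb upstream of the canonical TSS, lay in the first intron of ENSG00000289541, and their folds were 15.5, 11.4, 5.14 and 7.65. The nearest of them had a pileup of 44 (32.0 to 59.1) and the third of only 8 (3.45 to 15.8). In the 51.8 kb between SERPINA1 and SERPINA11 there were 6 peaks in all, with a highest fold of 17.8. In the 53.4 kb between SERPINA6 and SERPINA1 there were 7, with a highest fold of 20.8. This stretch contains SERPINA2, a close relative of SERPINA1 that had no TSS peak, its nearest summit being 2.47 kb away with a fold of 12.5.

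The 3 genes without a TSS peak differed in what lay near them. SERPINA9 (ENSG00000170054) had its nearest summit 6.14 kb upstream, with a fold of 6.27 and a pileup of 9 (4.12 to 17.1). A higher peak, with a fold of 18.1 and a pileup of 32 (21.9 to 45.2), lay in its intron 4 at 94463192 to 94463510, nearer to the TSS of SERPINA11 than to its own. SERPINA12 (ENSG00000165953) held no peak at all in its body. Its nearest peak, at 94522182 to 94522524, lay 12.9 kb upstream of the canonical TSS and 4553 bp upstream of its outermost annotated start. The fold of this peak was 22.4 and its pileup 47 (34.5 to 62.5), higher than at the TSS of SERPINA3. SERPINA4 (ENSG00000100665) had a weak peak 3.04 kb downstream of its TSS, in the second intron, with a fold of 5.50 and a pileup of 6 (2.20 to 13.1). A second peak in its last exon had a fold of 11.7 and a pileup of 23 (14.6 to 34.5).

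Counting every annotated start, 29 of the 65 transcripts of the 9 genes (44.6%) had a peak within 1000 bp, and none of the 16 transcripts of SERPINA9, SERPINA12 and SERPINA4 had one. The share over all annotated transcript starts was not measured, so 44.6% has no background beside it, and 20 of the 65 transcripts are of SERPINA1. SERPINA5 had a peak at 10 of 12 starts. The 2 others begin at 94561442, the start of SERPINA4, which had no peak. SERPINA3 had one at 7 of 9 starts, and SERPINA10 at 3 of 4.

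The interval also holds 9 other annotated genes, and 1 of these had a TSS peak. This was the lncRNA ENSG00000288028 between SERPINA5 and SERPINA3, with a fold of 17.6 and a pileup of 85 (67.9 to 105) at its start. At 618 bp this was the widest peak of the interval, wider than 99.3% of nuclear peaks. SERPINA2, the lncRNAs ENSG00000289541, ENSG00000256357 and ENSG00000287668, the protein-coding gene ENSG00000273259, the pseudogene ADIPOR1P2 and both entries of SERPINA13P had none.

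Peaks were dense over the cluster. The interval of 444 kb held 9.69 peaks per 100 kb (interval 7.02 to 13.1), against 2.36 over the rest of chromosome 14 and 2.14 over the other autosomes, which is 4.12 and 4.54 times as many. Peaks covered 2.06% of its bases and 0.492% of the rest of the chromosome. When chromosome 14 was divided into tiles of the same length, 198 of 200 (99.0%) held fewer peaks, with a median of 7.5 and a highest count of 48. Over all autosomes 6063 of 6106 tiles (99.3%) held fewer, with a median of 7.

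**Figure D4:**
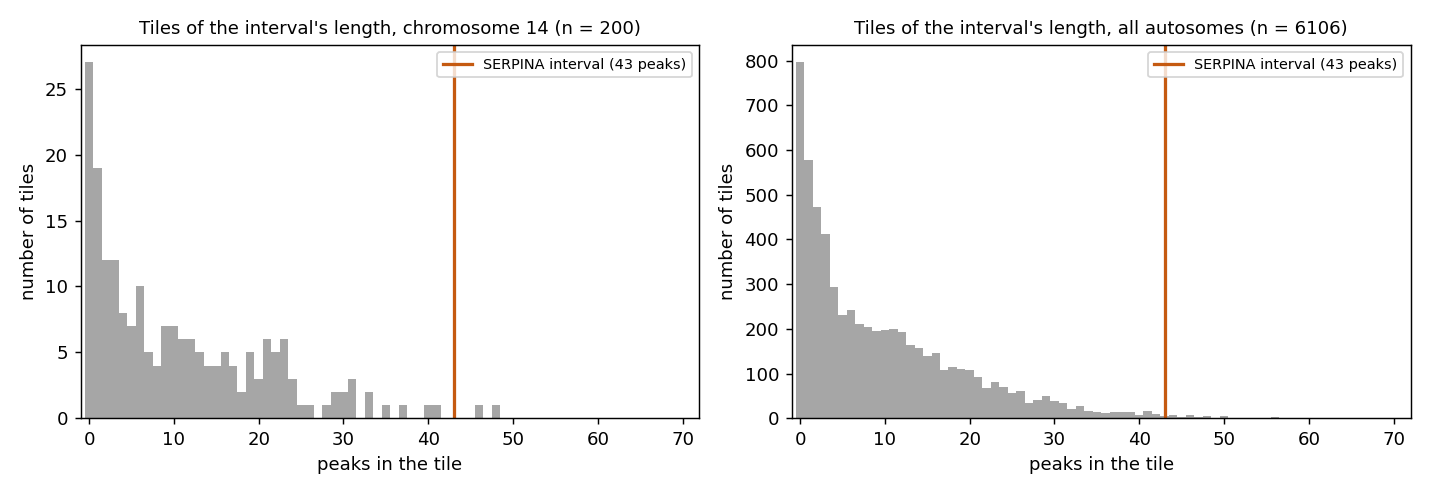
Number of tiles (y axis) by the number of peaks they held (x axis), for tiles of the interval's length on chromosome 14 (left) and on all autosomes (right). The line marks the 43 peaks of the SERPINA interval; 2 tiles of chromosome 14 and 43 tiles of the autosomes held as many or more.

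A few other groups of liver genes were measured the same way, each with 50 kb to either side. The cluster of APOA1, APOC3, APOA4 and APOA5, which encode apolipoproteins of plasma lipoproteins, held 14 peaks or 9.44 per 100 kb (5.16 to 15.8). The fibrinogen genes held 11 peaks or 7.34 per 100 kb (3.66 to 13.1), and ALB with AFP and AFM held 13 or 6.28 (3.35 to 10.7). All of these intervals overlapped that of the SERPINA cluster, so the densities were not distinguishable at this number of peaks. A TSS peak was found at 3 of 4 genes of the apolipoprotein cluster, at 2 of 3 fibrinogen genes and at 1 of 3 genes of the albumin cluster.

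The peaks were bounded on both sides by long stretches without any. None was listed for 96.3 kb before the first peak, from 94180904 to 94277197, a stretch that lies in PPP4R4, the next protein-coding gene on that side, and that 7.58% of gaps on chromosome 14 exceeded. After the last group of peaks a gap of 137 kb ran from 94689735 to 94826911 and held GSC, which encodes the homeobox protein goosecoid and had no TSS peak. Only 5.08% of gaps were longer. Between these gaps 47 peaks lay over 413 kb, 4 of them beyond the end of the interval. The median distance between neighbouring peaks within the interval was 7.97 kb, against 15.0 kb over chromosome 14. The longest, 35.7 kb, ran from 94486503 to 94522181 and contained the whole of SERPINA12.

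The cluster was also described in 3 stretches, each cut at the ends of its genes. Genes with a TSS peak are counted here among the 9 only. The first stretch also holds SERPINA2, which had no TSS peak. Peaks between the stretches and in the margins were left out, among them the peak upstream of SERPINA12 with a fold of 22.4. From SERPINA10 to SERPINA11, where 4 of 4 listed genes had a TSS peak, 20 peaks lay over 172 kb. Their density was 11.6 per 100 kb (7.09 to 17.9) and their median fold 13.1. The summit of the SERPINA11 TSS peak lay 58 bp beyond the end of this stretch, so that peak, with a fold of 21.7, is not among the 20. From SERPINA9 to SERPINA12, where neither gene had one, 4 peaks lay over 55.1 kb (7.26 per 100 kb, 1.98 to 18.6) with a median fold of 6.99. From SERPINA4 to SERPINA3, where 2 of 3 had one, 9 peaks lay over 62.6 kb (14.4 per 100 kb, 6.57 to 27.3) with a median fold of 11.7. The counting intervals of the 3 densities overlapped.

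Most peaks of the interval, 36 of 43 (83.7%, 69.3 to 93.2%), lay away from any TSS, against 71.7% of nuclear peaks, a share within that counting interval. Their summits fell between genes for 19 of the 43 peaks and in introns for 18, while 4 fell in an untranslated region and 2 in an exon of a noncoding transcript. The nearest protein-coding TSS was within 10 kb for 23 peaks and more than 20 kb away for 7. Away from a TSS the median fold was 8.96 and the median pileup 18.5, against 9.82 and 15 over the rest of chromosome 14 and 9.80 and 14 for nuclear peaks away from a TSS. At a TSS the 7 peaks had a median fold of 21.7 and a median pileup of 76.0, against 14.9 and 39 over the rest of chromosome 14. Over all 43 peaks the median fold was 11.5 (range 4.23 to 30.4) and the median pileup 22 (6 to 91), against 10.8 and 18 over the rest of chromosome 14 and 10.7 and 17.0 for nuclear peaks. A fold of at least 20 was reached by 9 peaks (20.9%), against 13.0% of nuclear peaks, a difference within counting error for 9 of 43. At the low end, 11 of the 43 peaks had a pileup of at most 10, against 25.9% of nuclear peaks.

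The 5 highest peaks away from the starts of the SERPINA genes included the highest of the interval. It lay in intron 24 of PPP4R4, 15.9 kb downstream of the SERPINA10 TSS, with a fold of 30.4 that exceeded 99.1% of nuclear peaks and a pileup of 58 (44 to 75). The peak upstream of SERPINA12 came next with a fold of 22.4. A peak in the first intron of ENSG00000273259, 2.07 kb from its TSS at 94593927 to 94594332, also had a fold of 22.4, from a larger pileup of 81 (64.3 to 101). A peak 17.4 kb upstream of SERPINA6, at 94340577 to 94340904, had a fold of 20.8 and a pileup of 45 (32.8 to 60.2). The peak in intron 4 of SERPINA9 had the fifth highest fold. The peaks upstream of SERPINA12 and in ENSG00000273259 are given as 201 bases centred on the summit, on the plus strand of GRCh38, with motif matches in capitals. The windows are chr14:94522297-94522497 (upstream of SERPINA12) and chr14:94594028-94594228 (ENSG00000273259 intron).
Peak upstream of SERPINA12: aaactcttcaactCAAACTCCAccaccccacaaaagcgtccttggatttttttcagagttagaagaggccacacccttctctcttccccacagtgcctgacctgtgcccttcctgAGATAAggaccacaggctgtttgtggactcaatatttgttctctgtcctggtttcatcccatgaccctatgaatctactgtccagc
ENSG00000273259 intron peak: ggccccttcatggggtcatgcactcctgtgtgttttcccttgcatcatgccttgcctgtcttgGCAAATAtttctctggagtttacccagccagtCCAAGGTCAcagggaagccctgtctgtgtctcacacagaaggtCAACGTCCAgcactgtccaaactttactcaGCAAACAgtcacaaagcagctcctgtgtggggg

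The first of these windows holds HNF4A and GATA matches, and the second holds a pair of FOXA matches with one of NR5A2 and one of HNF4A between them. These windows reach farther from the summit than the 50 bp used for the motif shares given next, so not all of these matches count there.

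Motifs of 12 factors were searched within 50 bp of each summit on both strands. They were HNF1 (GTTAATNAT), HNF4A (CAAAGTCCA), NR5A2 (TCAAGGTCA), each with up to 1 mismatch, FOXA (TGTTTAC or TGTTTGC or TATTTAC or TATTTGC), CEBP (TTGCNNAA), AP-1 (TGACTCA), the GATA family (by AGATAA), ONECUT (TATTGAT), STAT (TTCCNGGAA), SP/KLF (GGGCGGGG), TEAD (ACATTCCA) and CTCF with up to 1 mismatch. HNF1, HNF4A, NR5A2, FOXA, CEBP, GATA and ONECUT are families of factors known to act in hepatocytes. FOXA variants that end in TTGC can overlap a CEBP match, and HNF1 matches often occur on both strands at the same place. A match says only that these letters occur in the window.

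FOXA matches were the most frequent, in 12 of 43 peaks (27.9%, 15.3 to 43.7%), against 13.5% of all peaks and 11.6% of windows 2000 bp to either side of the same summits. CEBP matches were found in 7 peaks (16.3%, 6.81 to 30.7%), against 6.32% of all peaks and 8.14% of the flanks. HNF1 matches were found in 6 (14%, 5.30 to 27.9%), against 5.54% and 6.98%. The shares of FOXA and CEBP over all peaks lay below the intervals, and that of HNF1 lay within its interval. In the flanks of all peaks the shares were 5.67% for FOXA, 4.67% for CEBP and 7.35% for HNF1. For FOXA and CEBP the shares in the flanks of the interval peaks were thus also higher than in the flanks of all peaks. They rest on 10 and 7 of 86 windows, and no counting interval was taken for the flanks. With windows of 25 bp the FOXA share was 14% (5.30 to 27.9%) against 7.07% and the CEBP share 9.30% (2.59 to 22.1%) against 2.92%, so neither was then distinguishable from all peaks. With 100 bp the FOXA share was 39.5% (25.0 to 55.6%) against 20.4%, while the CEBP share of 18.6% (8.39 to 33.4%) was not distinguishable from the 11% of all peaks. GATA and NR5A2 matches, in 5 and 4 peaks, were also within counting error of all peaks, at 11.6 against 4.57% and 9.30 against 4.52%. HNF4A matches were in 3 peaks (6.98%) against 9.13% of all peaks, and CTCF matches in 5 (11.6%) against 13.9%. SP/KLF matches were found in 1 peak, that of SERPINA5, against 7.18% of all peaks. AP-1 matches were found in 2 peaks (4.65%), against 4.39% of all peaks. ONECUT, STAT and TEAD matches were found in none, for which the exact interval over 43 peaks reaches 8.22%. Their shares over all peaks were 0.638, 0.442 and 1.16%, within that interval.

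**Figure D5:**
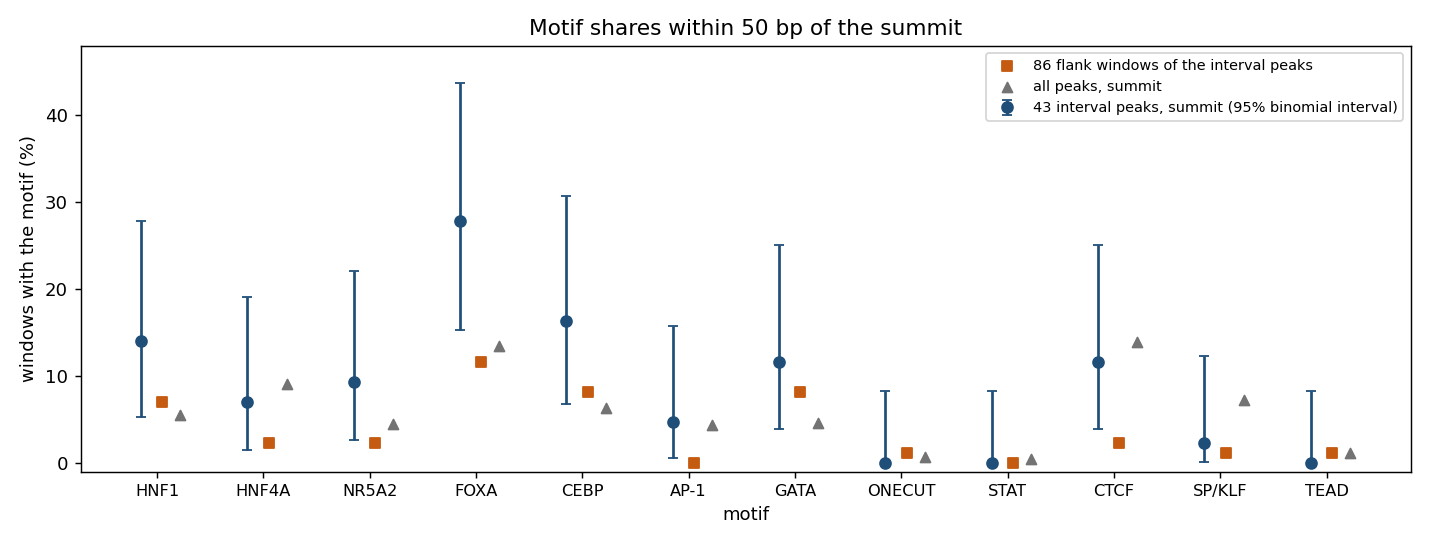
Share of windows with each motif in % (y axis) by motif (x axis), for the summits of the 43 interval peaks with exact 95% binomial intervals (blue circles), for 86 windows 2000 bp to either side of them (orange squares) and for the summits of all peaks (grey triangles). FOXA stands highest at 27.9%, against 13.5% of all peaks.

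Away from a TSS, where motifs of liver factors were more frequent in the whole list, FOXA matches were in 9 of 36 interval peaks (25.0%, 12.1 to 42.2%) against 17.0% of all such peaks, and CEBP matches in 6 (16.7%, 6.37 to 32.8%) against 7.74%, both within counting error. At least 1 of the 7 liver factor motifs was matched in 21 of 43 peaks (48.8%, 33.3 to 64.5%) against 34.6% of all peaks, a share within that counting interval. At least 2 different ones were matched in 12 peaks (27.9%, 15.3 to 43.7%) against 8.30% of all peaks. The share was 9.30% in the 86 flanking windows and 4.19% in the flanks of all peaks. Away from a TSS at least 2 were matched in 10 of 36 (27.8%, 14.2 to 45.2%) against 10.7%. The median fold of the peaks with at least 2 was 12.2, against 11.5 for the others. Matches of different factors that share bases were counted as different, and this count was made with the 50 bp window only. The SERPINA10 and SERPINA6 TSS peaks were among the 12, with FOXA and CEBP matches and with FOXA and HNF1 matches, respectively. At SERPINA10 the CEBP match shares bases with a FOXA match, so that peak was among the 12 only through overlapping matches. The remaining 10 lay away from any TSS, among them the weak peak in the second intron of SERPINA4, with FOXA, CEBP and HNF1 matches. The median GC content within 100 bp of the summit was 51.7% in the interval (48.3 to 53.7%) and 53.7% over nuclear peaks, and away from a TSS it was 51.5% and 50.2%.

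The CTCF matches lay at 5 peaks away from any TSS. A pair stood between SERPINA1 and SERPINA11, one lay between SERPINA9 and SERPINA12, one between SERPINA12 and SERPINA4, and one beyond SERPINA3. The folds of these peaks were 7.65, 14.1, 7.03, 6.47 and 6.89 in chromosome order. CTCF is a zinc finger protein known for its part in chromatin loops and domain borders.

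Serpin genes elsewhere in the genome were measured for comparison. Of clade A, both SERPINA7 (thyroxine-binding globulin) and AGT (angiotensinogen, the precursor of angiotensin) had a TSS peak, with folds of 12.5 and 13.7 and pileups of 19 and 45. These folds were close to that of SERPINA3 and below those of the other 5 SERPINA genes with a TSS peak. Of 24 serpin genes of the other clades, 13 (54.2%) had a TSS peak, against 61.5% of all protein-coding genes, and 4 of these were among the 13 genes of clade B. The highest folds among them were 21.9 at SERPINI1 (neuroserpin), 16.9 at SERPINH1 (a collagen chaperone), 16.4 at SERPINB1 and 16.2 at SERPINB8. All but SERPINI1 were below the fold of 5 of the 6 SERPINA TSS peaks.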

How the data were processed

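Upstream of the deposited list, the authors used cutadapt for trimming, Bowtie2 for mapping to GRCh38, samtools for duplicate removal and MACS2 for peak calling on the single library. The sources used here do not give the MACS2 version or any shift of reads to the Tn5 cut site, which would move summits by a few bases. The authors deposited with every peak a score (10 times -log10 q, rounded down), a ratio (fold of summit over background), -log10 p, -log10 q and the summit position.

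Pileup is the whole number for which the deposited fold, read as pileup plus 1 over background plus 1, and -log10 p both follow from a Poisson background, within 0.001 on the -log10 scale. This limit was widened slightly in proportion to -log10 p. A pileup was found for 100% of peaks, with a second solution for 1 interval peak, and for 100% of 2947 simulated peaks. The peaks were called on short fragments, per their names, and library totals were not used, so depth is known only at summits.

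Genes came from GENCODE 44 and sequences from GRCh38. The 50 bp at every interval summit occurred once in the genome. Sequence is printed for 8 of the interval peaks, and that of the peak with the highest fold is not reported here. Tiles with over 10% unsequenced bases were left out. GC content was measured 100 bp to either side of summits. Scripts ran in Python 3.11.15 with pandas 2.3.3, numpy 2.4.6, scipy 1.17.1 and matplotlib 3.10.9.

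The genes, lists and motifs were chosen with earlier results of these data known. Named were the 9 genes, other genes of the interval and the nearest coding gene on either side, SERPINA7 and AGT, the 4 other serpins with the highest fold, peaks at SERPINA starts and in SERPINA1, and the 5 others with the highest fold. Other peaks near a described gene, the gaps, the stretches of the cluster, the comparison clusters and the count of peaks with at least 2 motifs were added after values were seen. Alternatives were stricter q-values, other margins and TSS windows, any transcript start, other references and other motif windows.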

Additional observations from a re-analysis of the deposited data

How the results depend on the processing

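Of 56 recomputed values, 49 stayed close to the value given, within 1.5 times it for counts of peaks, genes or starts and within its counting interval for shares, medians and the density ratio. The density ratio to chromosome 14 ranged from 3.68 to 4.83. The 7 others, given next, used a stricter q-value or another motif window. With a -log10 q of at least 20 the interval held 21 peaks. Among peaks whose -log10 q reached 10, the median fold was 15.3 and the median pileup 29.0. Searching 25 bp to either side of the summit, HNF1 matches were found in 2.33% of peaks, against 2.42% of all peaks and 5.81% of the flanks. NR5A2 matches were found in 2.33% against 2.19% of all peaks, and FOXA matches in 14% against 7.07%. With 100 bp HNF4A matches were found in 20.9%, against 14.1% of all peaks. A TSS peak was counted at 6 SERPINA genes under each of the 7 alternatives run for that count. No paired analysis was possible because 1 library was analysed, and leaving out replicates could not be done for the same reason. The depth sets what could be listed: absence of a TSS peak at SERPINA9, SERPINA12 or SERPINA4 means that none passed the caller's threshold in this library.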
